A study of Homo sapiens with 20 samples.

Results

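The HOX gene clusters were examined for the positions at which 3 subunits of cohesin were listed in 2 human cell lines. The members were 38 listed HOX genes, taken by symbol from the GENCODE annotation of hg38, out of 19016 protein-coding genes with a MANE Select transcript (the reference transcript chosen for each gene). They lie in 4 clusters. The HOXA cluster holds 10 members at chr7:27100354-27200091, and the HOXB cluster holds 10 at chr17:48528526-48728750. The HOXC cluster holds 9 at chr12:53938831-54056030, and the HOXD cluster holds 9 at chr2:176092721-176190907. Together the 4 gene spans cover 515 kb. Each span was extended by 100 kb on either side, and the 1 Mb beyond each extension, 8 Mb in all, served as the flank.

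ChIP-seq was performed for RAD21, SA1 and SA2 in hTERT-immortalized CHM13 cells, which derive from a complete hydatidiform mole, with 3 replicates and input each, and in hTERT-immortalized RPE-1 cells, a retinal pigment epithelium line, with 2 replicates and input each. No treatment was applied to either line. The RAD21 antibody differed between the lines while the SA1 and SA2 antibodies were shared, and Drosophila chromatin was added as a spike-in to the CHM13 chromatin. The 6 peak lists pool the replicates of a group and give a position for each peak, with no height and no value for each replicate, so no test between replicates could be made, and the 95% intervals given here cover counting error only.

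HOX genes encode homeodomain transcription factors that give cells their position along the body axis. In each cluster the genes are numbered by paralogous group, group 13 lies at the 5′ end, and the members are transcribed in the same direction, toward group 1. Cohesin is a ring complex in which RAD21 closes the ring and either SA1 or SA2 is bound. It extrudes chromatin loops and is known to stall where the DNA-binding protein CTCF is bound, and such places are known as boundaries between active and repressed parts of HOX clusters. Only binding was measured here, not HOX transcripts.

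The 9 stretches printed here belong to the sites that the values turn on. Each is the 30 bases around the closest match to a 12-base CTCF core consensus within 200 bp around the middle of a cohesin site, read 5′ to 3′ from hg38 on the strand of the match. That consensus is CCA, C or G, C or T, AG, A or G, G or T, then GGC, and is stricter than the relaxed core searched below. Capitals mark the core bases that fit it. The HOXC9, HOXA13 and HOXB13 stretches have 3 mismatches to it. How often other windows come that close was not counted, so these are not shown to be CTCF motifs. The first 4 are the sites on the lower-number side of the group 9 genes, and the next 2 are the sites on the group 4 side of the group 5 genes. The last 3 lie on the lower-number side of the group 13 coding sequences and are the sites nearest to them on that side.

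HOXA9 site, chr7:27161129-27161158, minus strand: aaacggcggCCAGCAGATGGCagtgtggct
HOXB9 site, chr17:48618737-48618766, minus strand: gcagagcagCCgCTAGATGGCacccttgct
HOXC9 site, chr12:54006113-54006142, plus strand: accaaatggaCgCgAGGTGGCgctgttgct
HOXD9 site, chr2:176127196-176127225, plus strand: ggcatttggCCACTAGAGaGCgctgttgct
HOXA5 site, chr7:27136564-27136593, minus strand: taggaatcgCCAGCAGAGcaCgctttagta
HOXB5 site, chr17:48585528-48585557, minus strand: ccggagctgCCAGTAGAGtcCgccttagac
HOXA13 site, chr7:27196389-27196418, plus strand: tctactaatCCAGCtaAGGcCaattcatga
HOXB13 site, chr17:48724682-48724711, plus strand: gagcctctgtCgGaAGGGGGCgcccacgtc
HOXD13 site, chr2:176097750-176097779, minus strand: gcccaatgcCCAGgAGATGGCgagcgcgct

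Peaks of the 6 lists that overlapped were joined into sites. The 4 gene spans held 24 sites, of which 9 were in all 6 lists, and every one of the 24 had a RAD21 peak of CHM13 cells. In the flanks only 1.42% of the sites lacked such a peak, so its presence was not particular to the spans. A further 18 sites lay in the extensions, 1 of them in all 6 lists. HOXA held 5 sites in its span (3 in all 6 lists), HOXB held 8 (4 in all 6), HOXC held 5 (1 in all 6) and HOXD held 6 (1 in all 6). The share of sites in all 6 lists was 37.5% in the spans (interval 18.8 to 59.4%), against 14.2% of 281 sites in the flanks (10.4 to 18.9%) and 6.18% of 77076 sites on chromosomes 1 to 22 and X. The interval of the spans began at 18.8%, just under the upper bound of the flanks at 18.9%.

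**Figure D1:**
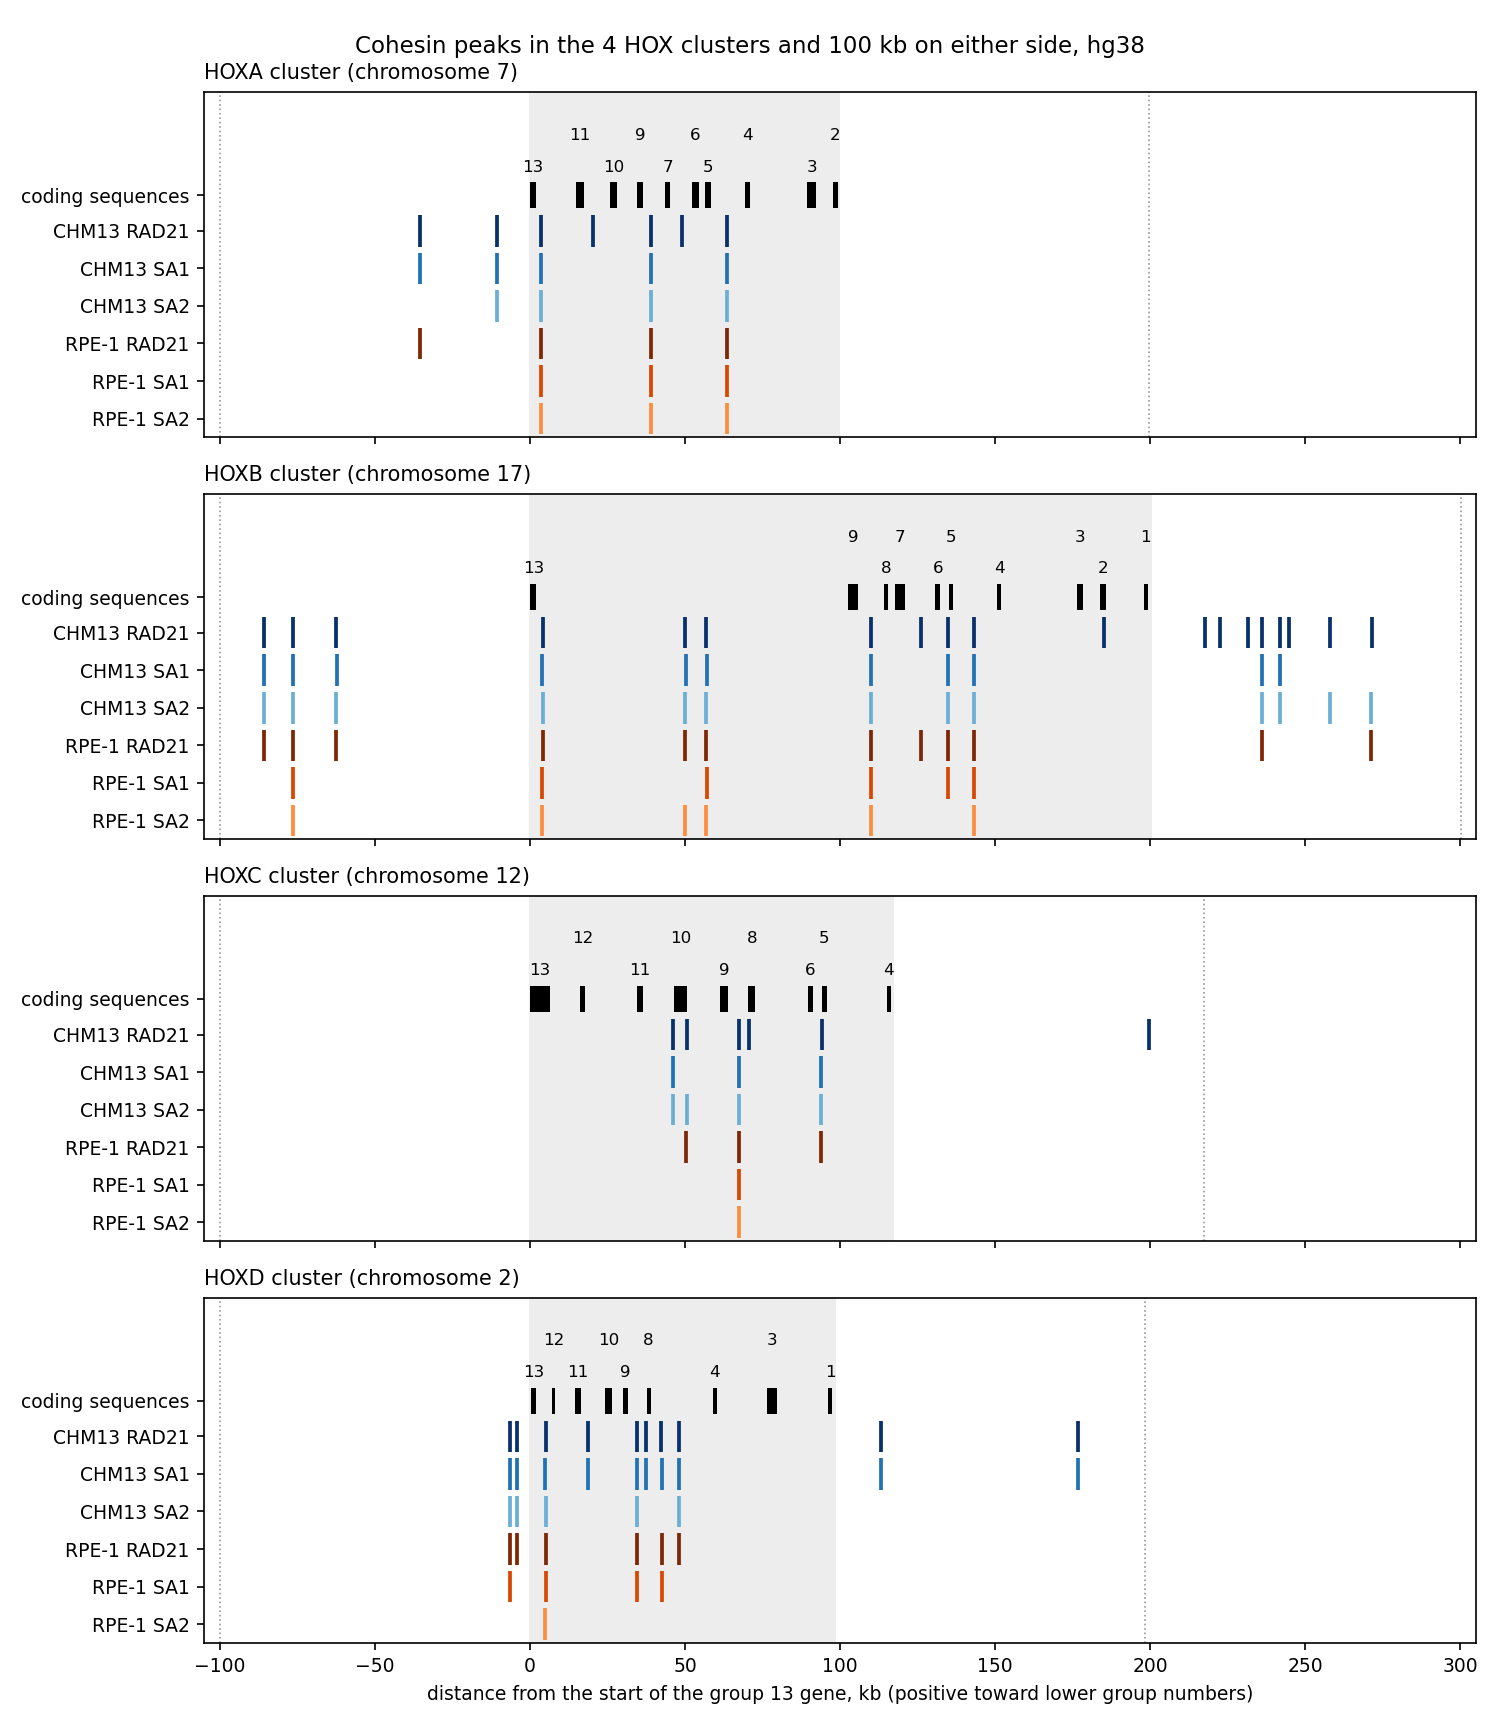
The 4 HOX clusters are drawn from the group 13 gene (left) toward group 1 (right), with distance from the start of the group 13 gene in kb on the x axis. Black boxes are coding sequences with their group number, each coloured tick is the centre of a peak in 1 of the 6 lists, grey shading is the gene span and dotted lines end the 100-kb extensions. The 3 sites of HOXA in all 6 lists lie at groups 13, 9 and 5. No tick lies between coding sequences directly below a gene of group 2, 3, 4, 10 or 12.

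The group 9 genes were the point that the 4 clusters had in common. Between HOXA9, HOXB9, HOXC9 or HOXD9 and the next HOX gene of lower number, each cluster held a site, in 6 lists for HOXA, HOXB and HOXC and in 5 for HOXD, where RPE-1 SA2 had none. These genes encode factors of the trunk and limbs. Among the 12 positions compared, only those below groups 9 and 13 exist in all 4 clusters, and the one below group 13 held a peak in 3 of 4. The 3 intervals below group 11 and the 2 below group 7 each held a peak as well, but in no more than 3 lists.

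The HOXA9 site, chr7:27160678-27161456, lay between HOXA7 and HOXA9 in no HOX transcript, 1.37 kb past the end of the HOXA9 transcript. Its peaks were 779 bp wide for CHM13 RAD21, 665 bp for CHM13 SA1, 690 bp for CHM13 SA2, 494 bp for RPE-1 RAD21, 418 bp for RPE-1 SA1 and 358 bp for RPE-1 SA2. The HOXB9 site, chr17:48618347-48619084, lay between HOXB8 and HOXB9, 2.44 kb past the HOXB9 transcript, with peaks of 738, 690 and 590 bp in the CHM13 lists and of 555, 369 and 403 bp in the RPE-1 lists, in the same order. Both sites were narrower in each RPE-1 list than in the CHM13 list of that subunit, as the medians of the whole lists were. The HOXC9 site, chr12:54005756-54006590, lay between HOXC9 and HOXC8, 2.84 kb past the HOXC9 transcript, with CHM13 peaks of 835, 721 and 748 bp and RPE-1 peaks of 504, 474 and 386 bp. The HOXD9 site, chr2:176126817-176127621, lay 2.28 kb past the HOXD9 transcript and within the antisense gene HOXD-AS2, with CHM13 peaks of 765, 749 and 495 bp, an RPE-1 RAD21 peak of 547 bp and an RPE-1 SA1 peak of 536 bp. Across the clusters these sites thus sat 1.37 to 2.84 kb past the group 9 transcript. This distance was not particular to group 9. Sites in fewer lists lay 1.28 kb past HOXA11, 2.43 kb past HOXD8 and 2.78 kb past HOXA7. Others lay farther, such as 4.53 kb past HOXA5 and 7.39 kb past HOXC11.

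The stretches of these sites, printed above, were compared base by base. The HOXC9 and HOXD9 stretches shared 20 of 30 bases, 14 of them among the 18 bases outside the core. The 6 pairs among the group 9 sites shared 8 to 14 of those 18 bases, with a median of 9. Among 77 pairs of HOX sites in 5 or 6 lists that do not take the same place in 2 clusters, the range was 2 to 10 and the median was 6. The core itself chose the stretches, so identity within it is not evidence of likeness.

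Group 5 and group 13 repeated across some of the clusters. Between HOXA4 and HOXA5, factors of the neck and upper trunk, a site in all 6 lists lay at chr7:27136082-27136958, in an intron of HOXA3 and within HOXA-AS3, 4.53 kb past the HOXA5 transcript. Between HOXB4 and HOXB5 a site in all 6 lists lay at chr17:48585064-48586143, in an intron of HOXB3 and within HOXB-AS3, 5.65 kb past HOXB5. Their stretches shared 19 of 30 bases, 10 of the 18 outside the core, which equals the highest value among the 77 other pairs. The interval between HOXC5 and HOXC4 held no listed peak, and HOXD has no group 5 gene.

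Group 13 genes encode factors of the hindmost trunk, hands and feet. The HOXA13 site, chr7:27195959-27196979, lay within the HOXA13 transcript, in a UTR exon 1.73 kb past the end of the coding sequence. The HOXB13 site, chr17:48724309-48725075, lay 2.101 kb past the coding sequence of HOXB13 and in the gene PRAC2. The HOXD13 site, chr2:176097340-176098121, lay between HOXD13 and HOXD12, 3.00 kb past the HOXD13 coding sequence. All 3 were in 6 lists, whereas the intervals from HOXC13 to HOXC12 and from HOXC12 to HOXC11 held none. The pairs of group 13 stretches shared 2 to 6 of the 18 bases outside the core, no more than the other pairs.

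HOXB held 2 further sites in the 101 kb between HOXB9 and HOXB13, where the other clusters keep genes of groups 10 and 11. The one at chr17:48671519-48672186 was in all 6 lists and the one at chr17:48678245-48678977 was in 5, without RPE-1 SA1. Both lay in the noncoding gene LINC02086, 45.5 kb and 52.3 kb from the HOXB9 start. Outside the spans, the 1 site in all 6 lists was at chr17:48804689-48805449, in the tubulin-modifying gene TTLL6 and 76.3 kb from the HOXB13 start.

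**Figure D2:**
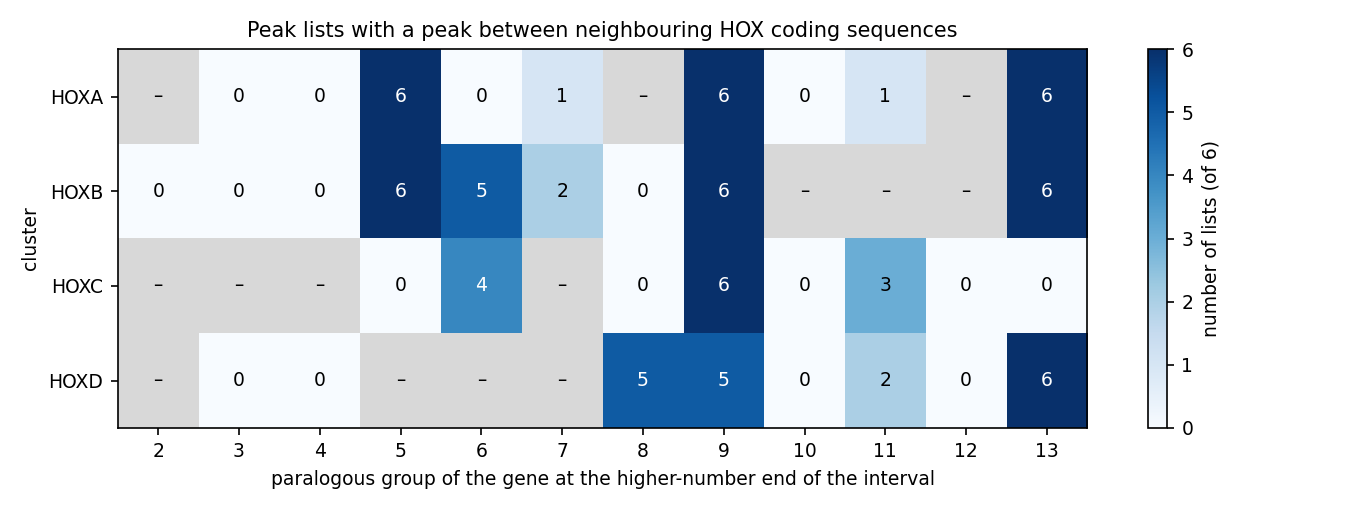
Each cell is 1 interval between the coding sequences of neighbouring listed HOX genes, with the cluster on the y axis and, on the x axis, the paralogous group of the gene at the higher-number end. The number and the shade give how many of the 6 lists held a peak centre there, and grey cells with a dash are places with no such interval. The column of group 9 reads 6, 6, 6 and 5, and the columns of groups 3, 4, 10 and 12 read 0.

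Because the reference transcripts of HOXA3 and HOXB3 run across neighbouring HOX genes, intervals between coding sequences were used for this count, a choice made after the positions were seen. Of 34 such intervals, 17 held a peak in some list, 8 held a peak in all 6 lists and 17 held none. By list, 17 intervals held a peak centre in CHM13 RAD21, 14 in SA1 and 13 in SA2, against 13, 11 and 8 in the RPE-1 lists. With reference transcript bodies there were 30 intervals, of which 12, 11 and 10 held a CHM13 peak and 9, 8 and 5 an RPE-1 peak. Intervals whose higher-number gene was of group 2, 3 or 4 held no peak in any cluster, over 1, 3 and 3 intervals. Those below groups 10 and 12 held none either, over 3 and 2 intervals. Assigned to the nearest gene start, the CHM13 RAD21 peaks of the spans numbered 3 at the 7 anterior genes (groups 1 to 3), 12 at the 15 middle genes (groups 4 to 8) and 9 at the 16 posterior genes (groups 9 to 13). For RPE-1 RAD21 the numbers were 1, 9 and 7. The peaks counted as anterior included the site between HOXA6 and HOXA7 and the site between HOXB4 and HOXB5. These lie nearest to the starts of the long reference transcripts of HOXA3 and HOXB3, not to anterior coding sequences. The 1 RPE-1 RAD21 peak counted as anterior was the site between HOXB4 and HOXB5. Stretches without a site in any list held whole genes. The first 136 kb of the extended HOXA region, which hold HOXA2 and HOXA4, had none, and the 64.2 kb that hold HOXD4, HOXD3 and HOXD1 had none. On HOXC, 146 kb with HOXC13, HOXC12 and HOXC11 and 105 kb with HOXC4 were without a site. A position that a list leaves out is not shown to be unbound.

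Most HOX sites were listed in both lines. In the spans 17 of 24 sites were in both lines (70.8%, interval 48.9 to 87.4%), against 107 of 281 in the flanks (38.1%, 32.4 to 44.04%) and 21.8% over chromosomes 1 to 22 and X. The other 7 were in CHM13 lists only, 4 of them in CHM13 RAD21 alone. None was in RPE-1 only, beside 0.356% of the sites in the flanks. Read by subunit, 17 of 24 CHM13 RAD21 peaks of the spans overlapped an RPE-1 RAD21 peak (70.8%, 48.9 to 87.4%), beside 34.2% in the flanks and 19.5% of the whole list. For SA1 the numbers were 12 of 18 (66.7%, 41.0 to 86.7%), beside 42.7% in the flanks and 27.2% of the list. For SA2 they were 10 of 16 (62.5%, 35.4 to 84.8%), beside 28.8% and 14.2%. All 3 intervals lay above the share of the list. Against the flanks, the RAD21 interval did not overlap (28.6 to 40.1% there), while those of SA1 (34.8 to 50.8%) and SA2 (22.1 to 36.3%) did.

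Read from the RPE-1 side, all 17 RAD21 peaks, all 12 SA1 peaks and all 10 SA2 peaks of the spans overlapped a CHM13 peak of the same subunit. This is close to the whole lists, where the shares were 97.1%, 97.5% and 98.5%. When overlap of at least 50% of both peaks was required, 13 of 17 RAD21 peaks (76.5%, 50.1 to 93.2%), 12 of 12 SA1 peaks (73.5 to 100%) and 9 of 10 SA2 peaks (90.0%, 55.5 to 99.7%) were shared, beside 58.7%, 61.9% and 51.9% of the lists and 72.4%, 72.1% and 67.3% in the flanks. The SA1 and SA2 intervals then lay above the share of the list and overlapped those of the flanks. The RPE-1 lists were shorter, with 14998, 10724 and 6416 peaks for RAD21, SA1 and SA2 against 73881, 38284 and 44503 in CHM13 cells, and most CHM13 libraries were sequenced more deeply than the RPE-1 libraries. The part of list length and depth in these shares was not tested.

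**Figure D3:**
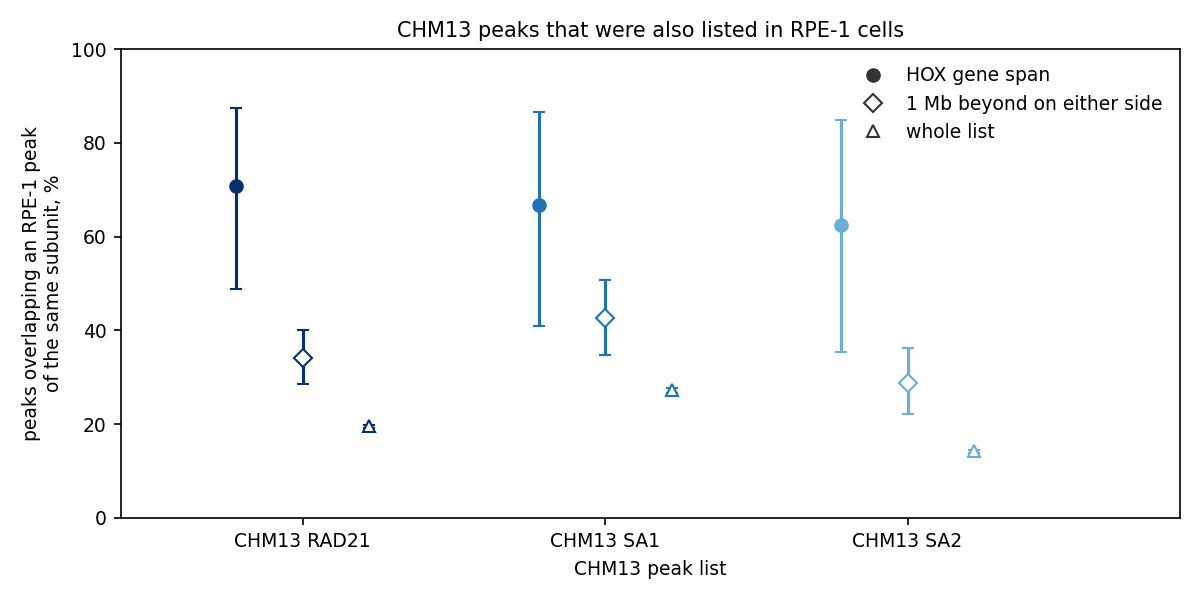
The share of CHM13 peaks that overlapped an RPE-1 peak of the same subunit by at least 1 bp is on the y axis, for each CHM13 list on the x axis. Filled circles are the HOX gene spans, diamonds the 1 Mb beyond on either side and triangles the whole list, and bars are Clopper-Pearson 95% intervals. The circles lie at 70.8, 66.7 and 62.5%, above the diamonds and triangles of the same list.

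The sites listed in CHM13 cells and not in RPE-1 cells included 1 interval with all 3 CHM13 subunits. It lay between HOXC11 and HOXC10 at chr12:53984649-53985415, 0.114 kb from the start of HOXC10, a gene of the posterior trunk and hind limb, with peaks of 767, 659 and 517 bp for RAD21, SA1 and SA2. The start of the antisense gene HOXC-AS3 was within 1 kb of the same peaks. Outside the spans, a site at chr7:27210263-27210923 beyond HOXA13 and a site at chr17:48486444-48487195 beyond HOXB1 had the same pattern. That pattern was held by 4.17% of the sites in the spans, beside 15.3% of the sites in the flanks. The 4 sites with CHM13 RAD21 alone lay between HOXA6 and HOXA7, between HOXA10 and HOXA11, in a coding exon of HOXB2 and in a coding exon of HOXC8. They were 16.7% of the sites in the spans, beside 35.2% in the flanks. The 2 lines used different RAD21 antibodies, so for sites that rest on RAD21 alone the line and the antibody cannot be told apart.

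By subunit, SA1 and SA2 were listed at most RAD21 peaks of the spans. In CHM13 cells 18 of 24 RAD21 peaks overlapped an SA1 peak (75.0%, 53.3 to 90.2%) beside 48.2% of the whole list, and 16 of 24 overlapped an SA2 peak (66.7%, 44.7 to 84.4%) beside 57.2%. In RPE-1 cells 12 of 17 overlapped SA1 (70.6%, 44.04 to 89.7%) beside 56.2%, and 10 of 17 overlapped SA2 (58.8%, 32.9 to 81.6%) beside 37.6%. Only the CHM13 SA1 interval lay above its list, and it held the 55.8% of the flanks. Conversely, all SA1 and SA2 peaks of the spans overlapped a RAD21 peak, beside 94.5% and 96.8% of the CHM13 lists and 78.7% and 88.0% of the RPE-1 lists. Each of these 4 intervals held the share of its list, so no difference was shown. At HOXD, 6 of 6 CHM13 RAD21 peaks overlapped SA1 while 3 SA2 peaks were listed there. The difference between SA1 and SA2 at HOXD was not tested.

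Peak density was set against the 1 Mb on either side of each extended cluster. In the RPE-1 lists the gene spans held 33.0 RAD21 peaks per Mb (interval 19.2 to 52.8, 17 peaks), 23.3 SA1 peaks (12.03 to 40.7, 12 peaks) and 19.4 SA2 peaks (9.31 to 35.7, 10 peaks). The flanks held 12.2, 8.50 and 6.12 per Mb. The ratios of span to flank were 2.69 (1.51 to 4.54), 2.74 (1.35 to 5.10) and 3.17 (1.43 to 6.33), all with intervals above 1. In the CHM13 lists the spans held 46.6 RAD21 peaks per Mb (29.8 to 69.3, 24 peaks), 34.9 SA1 peaks (20.7 to 55.2, 18 peaks) and 31.0 SA2 peaks (17.7 to 50.4, 16 peaks). The ratios were 1.34 (0.844 to 2.04), 1.78 (1.03 to 2.91) and 1.46 (0.816 to 2.44), so only the SA1 interval lay above 1. Leaving out 1 cluster brought the lower bound under 1 for CHM13 SA1 without HOXD (1.30, 0.654 to 2.34) or HOXA (1.68, 0.913 to 2.87), for RPE-1 SA1 without HOXD (2.23, 0.972 to 4.54) and for RPE-1 SA2 without HOXA (2.41, 0.912 to 5.41) or HOXB (2.72, 0.832 to 6.97). The RPE-1 RAD21 interval stayed above 1 whichever of the 4 clusters was left out.

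In the RPE-1 SA1 and SA2 lists the 100 kb on either side were less dense than the gene spans, with intervals that did not overlap. For RPE-1 SA1 the extensions held 2.50 peaks per Mb and for RPE-1 SA2 they held 1.25, with ratios to the flank of 0.294 (0.0349 to 1.10) and 0.204 (0.00506 to 1.19). With the extensions added to the spans, the ratios to the flank were 0.919 (0.648 to 1.27) for CHM13 RAD21, 1.12 (0.729 to 1.68) for CHM13 SA1, 0.9302 (0.591 to 1.41) for CHM13 SA2, 1.55 (0.958 to 2.43) for RPE-1 RAD21, 1.25 (0.650 to 2.25) for RPE-1 SA1 and 1.37 (0.640 to 2.66) for RPE-1 SA2. Every one of these 6 intervals held 1. The HOXC extensions held 1 CHM13 RAD21 peak and none in the other 5 lists, where the exact interval of 0 in 0.2 Mb reaches 18.4 per Mb.

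**Figure D4:**
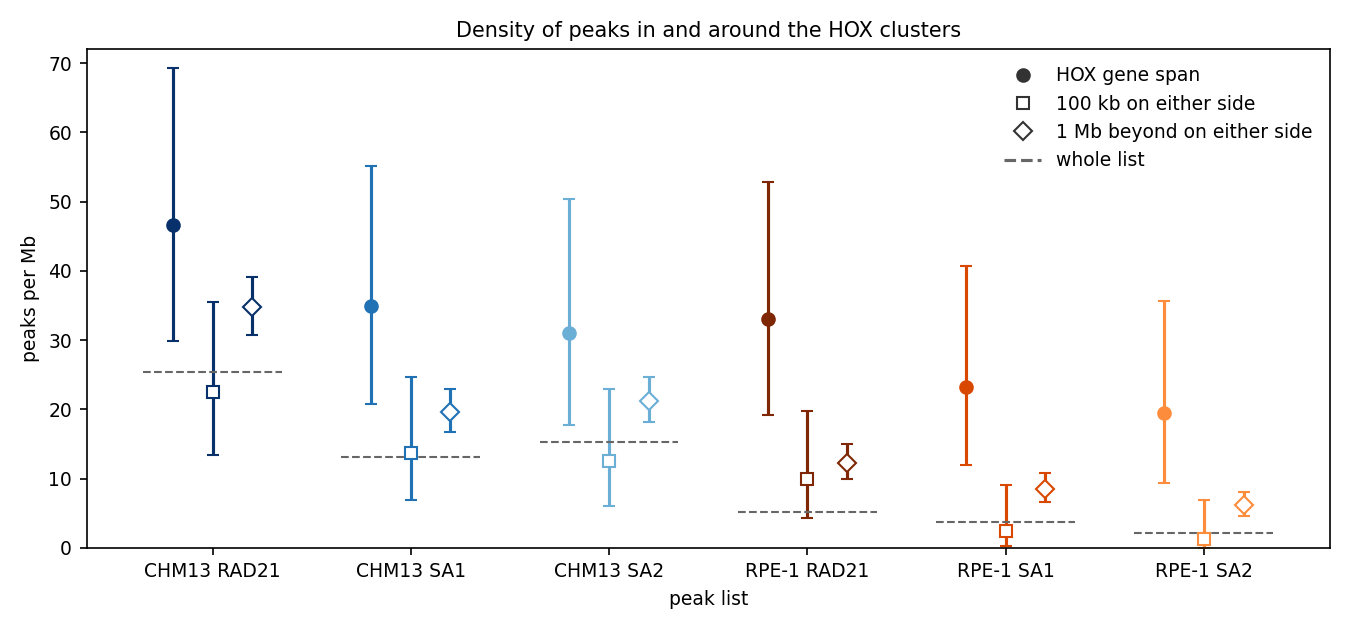
Peaks per Mb are on the y axis for each of the 6 lists on the x axis. Filled circles are the 4 gene spans together, squares the 100 kb on either side, diamonds the 1 Mb beyond on either side, bars are exact Poisson 95% intervals and dashed lines are the density of the whole list. In each RPE-1 list the circle (33.0, 23.3 and 19.4) lies above the diamond (12.2, 8.50 and 6.12), with intervals that do not overlap.

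The ratio varied from cluster to cluster. At HOXD the span-to-flank ratio lay between 2.35 and 9.05 over the 6 lists. Its interval lay above 1 for RPE-1 RAD21 (9.05, 2.04 to 32.4), RPE-1 SA1 (6.11, 1.08 to 23.7) and CHM13 SA1 (5.09, 1.70 to 12.8), and the others held 1. At HOXA the ratio lay between 1.72 and 8.59. Only the RPE-1 SA2 interval there (8.59, 1.43 to 37.6, on 3 span peaks) lay above 1, and the RPE-1 RAD21 ratio was 4.63 (0.846 to 16.8). At HOXB it lay between 1.04 and 3.57 over the 6 lists, and only the RPE-1 SA2 interval (3.57, 1.006 to 10.5, on 5 span peaks) lay above 1. At HOXC it lay between 0.609 and 1.25, and every interval held 1. The flanks of HOXC were the densest for CHM13 RAD21, with 97 peaks in 2 Mb against 48 at HOXD. The differences between clusters were not tested. Set side by side, the span-to-flank ratio of RAD21 was 2.01 times as high in RPE-1 cells as in CHM13 cells (1.04 to 3.90), that of SA1 was 1.54 times (0.703 to 3.37) and that of SA2 was 2.17 times (0.925 to 5.08). These intervals treat the lists of the 2 lines as independent although most RPE-1 sites are also CHM13 sites, and the RAD21 value fell to 1.94 (0.998 to 3.77) when peaks closer than 1 kb were joined and to 1.69 (0.978 to 2.92) with the 100 kb on either side included.

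Within 1 kb of a start, CHM13 RAD21 had a peak at 5 of 38 HOX genes (13.2%, 4.41 to 28.1%), beside 34.2% of all protein-coding genes. CHM13 SA1 had one at 4 of 38 (2.94 to 24.8%) beside 18% and CHM13 SA2 at 3 of 38 (1.66 to 21.4%) beside 14.5%. RPE-1 RAD21 had one at 2 of 38 (0.644 to 17.7%) beside 5.99%, RPE-1 SA1 at 1 of 38 (0.0666 to 13.8%) beside 1.78% and RPE-1 SA2 at 0 of 38 (0 to 9.25%) beside 1.37%. Only the CHM13 RAD21 interval lay below the share of all genes, and the other 5 held it. Within 2 kb of a start the CHM13 RAD21 share was 23.7% (11.4 to 40.2%) beside 37.7%, so that interval held the share of all genes. The 5 genes were HOXB5 (5 lists), HOXC5 (4 lists), HOXC10 (3 lists), HOXD8 (2 lists) and HOXC8 (1 list), and the other 33 had no peak in any list. The HOXB5 start lay 0.294 kb from the middle of a site at chr17:48593718-48594428, which was in all lists but RPE-1 SA2. The HOXC5 start lay 0.029 kb from the middle of a site at chr12:54032396-54033646, which was in the 3 CHM13 lists and RPE-1 RAD21. The median distance from a HOX start to the nearest RPE-1 RAD21 peak was 7.20 kb, against 36.5 kb over all protein-coding genes, and for CHM13 RAD21 it was 4.55 kb against 6.96 kb. HOX starts lie close together and several share a nearest peak, such as HOXA4, HOXA5 and HOXA6 for RPE-1 RAD21. The distances are therefore not separate observations, and they have no interval.

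Other genes of the pathway were counted in the same way. Of 16 noncoding genes of the clusters, which include HOTAIR, HOTTIP and HAGLR, 2 had a CHM13 RAD21 peak within 1 kb of the start (HOXC-AS3 and HOXB-AS1) and none had an RPE-1 peak. The CHM13 RAD21 share was 12.5% (1.55 to 38.3%), and the interval of each RPE-1 share was 0 to 20.6%. These intervals held the shares of all protein-coding genes given above, so no difference was shown. Of 26 genes for HOX cofactors, Polycomb and Trithorax proteins and CTCF, 12 had a CHM13 RAD21 peak, 6 an SA1 peak and 4 an SA2 peak, and 2, 1 and 0 had an RPE-1 peak. These are 46.2%, 23.1%, 15.4%, 7.69%, 3.85% and 0%, and all 6 intervals held the share of all protein-coding genes given above. KMT2B, a histone H3 lysine methyltransferase, was in 5 lists, JARID2, a Polycomb partner, in 4, and CTCF itself in the 3 CHM13 lists. The cofactor genes MEIS1 and PBX3 were in CHM13 RAD21 and SA1 only, and PKNOX2 in the 3 CHM13 lists.

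A search for the relaxed core CCNNNAGNNGGC on both strands found a match in 8 of 24 CHM13 RAD21 peaks of the spans (33.3%, 15.6 to 55.3%) beside 25.6% of the whole list. For CHM13 SA1 it was 5 of 18 beside 32.9%, and for CHM13 SA2 5 of 16 beside 29.1%. For the RPE-1 lists it was 6 of 17 RAD21 peaks beside 47%, 4 of 12 SA1 peaks beside 41.5% and 3 of 10 SA2 peaks beside 44.3%. All 6 intervals held the share of the list, so the HOX peaks were not shown to differ. Windows of the same length 10 kb away held a match in 5.78% for CHM13 RAD21 and 4.77% for RPE-1 RAD21. Of the 10 sites in all 6 lists, 3 held the relaxed core, those at HOXA9, HOXB9 and HOXD13. Of the same 10, 1 fitted the stricter consensus exactly, 3 within 1 mismatch and 7 within 2, beside 17.9%, 49.5% and 71.5% of 4765 such sites on chromosomes 1 to 22 and X and 0.0437%, 1.20% and 12.6% of windows 10 kb away. A match is a description of the letters, and CTCF binding was not measured in these lists.

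The median width in the spans was 750 bp for CHM13 RAD21 (range 437 to 1562) beside 723 bp over the list, and 456 bp for RPE-1 RAD21 (343 to 1025) beside 443 bp. The clustered protocadherin genes of chromosome 5, a family of neuronal adhesion genes in 0.727 Mb, served as a comparison. There the density ratio of HOX spans to protocadherin span was 1.06 (0.596 to 1.85) for CHM13 RAD21, 1.02 (0.522 to 1.94) for CHM13 SA1 and 0.868 (0.435 to 1.68) for CHM13 SA2. In RPE-1 cells the RAD21 ratio was 3.996 (1.50 to 12.4). The ratio of SA1 there reached 8.46 (1.88 to 77.8) and the ratio of SA2 reached 14.1 (2.01 to 612), on 6, 2 and 1 listed peaks in the protocadherin span. With 100 kb added to both families the RPE-1 ratios were 1.76 (0.817 to 4.11), 1.64 (0.594 to 5.22) and 2.58 (0.683 to 14.4), all with intervals that held 1. Against the keratin spans of chromosomes 12 and 17 together, the HOX density was 2.76 (1.36 to 5.48), 3.14 (1.31 to 7.47) and 2.84 (1.10 to 7.16) times as high for RPE-1 RAD21, SA1 and SA2, and 1.32 (0.786 to 2.14), 2.19 (1.1399 to 4.10) and 1.43 (0.746 to 2.63) times for the CHM13 lists. The RPE-1 RAD21 ratio to keratin with 100 kb added was 1.17 (0.671 to 2.01). The difference between lines in these family ratios was not tested.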

How the data were processed

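Per the labels and the study's methods, paired-end ChIP-seq reads were aligned by the authors with BWA, filtered with SAMtools and peaks were called with MACS2. Overlapping loci were merged over replicates and those found in fewer than 2 replicates were discarded. These steps are described for the CHM13 assembly, and the alignment behind the hg38 lists is not given in the sources used here. The deposited hg38 lists hold peak start and end positions in bp, with no count or score. The study states read totals for each library, higher in the CHM13 than in the RPE-1 immunoprecipitations except for 1 CHM13 RAD21 replicate, the lowest of all. These totals did not enter the intervals. The 6 lists on the CHM13 assembly were not used.

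Peaks were assigned to regions by their centre (Python 3.11.15, numpy 2.4.6, scipy 1.17.1), on GENCODE release 44 and the hg38 sequence. Densities have exact Poisson intervals, density ratios exact conditional intervals, shares Clopper-Pearson intervals and ratios of ratios Wald intervals on the log scale, all at 95%. No p-value was computed. The counting was checked on constructed intervals. Genes were named by rule: sites in all 6 lists, intervals with all 3 lists of one line and none of the other, gene starts with a peak in 3 or more lists, the listed noncoding and cofactor genes by counts, and neighbouring genes. HOXC8, HOXD8 and the sites outside this rule were named after their values were seen. Members and lists were chosen with earlier results of these data known. The search for the closest stretch, the comparison of stretches and the intervals between coding sequences were added after the data were seen. 1 further HOX gene was not analysed here.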

Additional observations from a re-analysis of the deposited data

Results flagged for a closer look

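The RAD21 ratio of gene span to flank was 2.01 times as high in RPE-1 cells as in CHM13 cells (interval 1.04 to 3.90), and was set apart because that interval lay above 1. It rested on 17 RAD21 peaks in the spans and 98 in the flanks of RPE-1 cells, against 24 and 278 in CHM13 cells. The value was 1.94 (0.998 to 3.77) with peaks closer than 1 kb joined and 1.69 (0.978 to 2.92) with 100 kb on either side, and both intervals held 1. By the rule the study states, a locus was kept if found in 2 of 2 replicates of RPE-1 cells, or at least 2 of 3 of CHM13 cells. This rule, the RAD21 antibody, the sonication device and the list length (14998 against 73881 peaks) all differed together with the line. These cannot be told apart.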

How the results depend on the processing

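No paired analysis was possible because each list pools its replicates, and for the same reason no replicate could be left out. Of 192 alternative values, 150 kept the direction and the side of 1, or stayed within the interval or 1.5 times the count. The density ratio of span to flank lost its interval above 1 for CHM13 SA1 without HOXA (1.68) or HOXD (1.30), for RPE-1 SA1 without HOXD (2.23) and for RPE-1 SA2 without HOXA (2.41) or HOXB (2.72). With 100 kb on either side, the ratio crossed 1 without HOXC for CHM13 RAD21 (1.20) and SA2 (1.17), without HOXD for CHM13 SA1 (0.843) and without HOXB for RPE-1 SA2 (0.937). It gained an interval above 1 for RPE-1 RAD21 with a 2-Mb flank (1.63) or without HOXC (2.32) and for RPE-1 SA2 without HOXC (2.50). The RAD21 ratio of RPE-1 over CHM13 cells was 1.94 with peaks closer than 1 kb joined.

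With 100 kb added to both families, the ratio of HOX to protocadherin density was 0.688, 0.601 and 0.555 for CHM13 RAD21, SA1 and SA2 and 1.76, 1.64 and 2.58 for the RPE-1 lists, and that of HOX to keratin density was 0.829, 1.08 and 0.789 and then 1.17, 1.04 and 0.948. The intervals above 1 of the spans alone, in the RPE-1 lists against both families and in CHM13 SA1 against keratins, were lost, and CHM13 SA2 against protocadherins lay below 1. Overlap of at least 50% of both peaks left 76.5% of RPE-1 RAD21 peaks shared, beside 58.7% of the list. GENCODE gene bodies, which merge transcripts and leave 19 intervals, gave 6, 5 and 5 intervals with a CHM13 peak and 5, 5 and 3 with an RPE-1 peak, and coding sequences gave 8 for RPE-1 SA2. Within 2 kb of a start, 9 genes had a CHM13 RAD21 peak, 2 an RPE-1 SA1 peak and 1 an RPE-1 SA2 peak, which are 23.7%, 5.26% and 2.63% beside 37.7%, 2.85% and 2.08% of all genes. The CHM13 RAD21 interval at 2 kb (11.4 to 40.2%) held the share of all genes, unlike that at 1 kb. The stricter motif was found in 4.17%, 5.56% and 6.25% of CHM13 peaks and 5.88% and 8.33% of RPE-1 RAD21 and SA1 peaks, each on 1 peak, beside 8.39%, 13.6%, 11.54%, 22.7% and 20.5% of the lists, and 7 of the sites in all 6 lists held a stretch with up to 2 mismatches. The causes of these changes were not tested. Peak heights are not in the lists, which limits what an unlisted position shows.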
